A study of Mus musculus with 2 samples.

Results

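The genes described are 10 genes of neutrophils: Ngp, Camp, Ltf, Lcn2, S100a8, S100a9, Retnlg, Mmp8, Mmp9 and Ifitm6. Most code for proteins of neutrophil granules or for the calcium-binding S100 proteins of the neutrophil cytosol. Ifitm6 codes for a protein of the interferon-induced transmembrane family. The 10 genes were taken by gene symbol from the 32285 genes of the count matrices, and each symbol was found once. Their UMIs (unique molecular identifiers, which count each captured RNA molecule once) were read in neutrophils, in macrophages and in T cells. In T cells they were taken as a measure of RNA that does not come from the cell in the droplet.

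The 2 libraries, 1 per group, are droplet 3' single-cell RNA libraries of CD4 or CD8 positive cells sorted from lung tumours of bone marrow chimeras. LYZKL mice received marrow of Tmem173fl/fl;Lyz2-Cre donors and WTKL mice received marrow of Tmem173fl/fl donors. The hosts of both were KL mice, which carry floxed Lkb1 (Lkb1fl/fl), given a lethal dose of irradiation before the marrow and adenoviral Cre by the nose, so both groups share the host genotype, on which Cre acts in host cells reached by the virus, while host cells that survived irradiation carry no floxed Tmem173 by their label. Lungs were taken 8 weeks after Cre. Tamoxifen stands in the treatment label of WTKL and not in that of LYZKL. Lyz2-Cre is active in the myeloid lineage, which includes neutrophils as well as macrophages. The labels give neither the number nor the age of the mice behind a library. With 1 library per group there is no test between groups and no p-value. Every 95% interval covers counting error only, and since the UMIs of a gene can cluster in few cells, it understates even that.

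Neutrophils make their granule proteins in waves while they mature in the bone marrow. Myeloperoxidase and elastase of the primary granules come first, lactoferrin, cathelicidin and lipocalin 2 of the secondary granules follow under the factor C/EBP epsilon, and the gelatinase of the tertiary granules comes later. The RNA of the secondary granule proteins is largely gone from the mature cell in blood, whereas S100a8 and S100a9 RNA stays abundant. In tumours, neutrophils are further split into cells that keep the chemokine receptor Cxcr2, as in blood, and cells that make chemokines such as Ccl3.

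Ngp, Camp and Ltf lie on chromosome 9 of GRCm38 (mm10): Camp from 109847379 to 109849617 on the minus strand, Ngp from 110419747 to 110423012 and Ltf from 111019271 to 111042767 on the plus strand. Mmp8 lies on the same chromosome from 7558456 to 7568485. S100a8 and S100a9 are neighbours on chromosome 3, 22596 bases apart, from 90668978 to 90670035 and from 90692632 to 90695721. Lcn2 (32384633 to 32388252) and Mmp9 (164940780 to 164955850) are on chromosome 2, Retnlg (48872621 to 48874496) on chromosome 16 and Ifitm6 (141015699 to 141017924) on chromosome 7. All are protein-coding genes.

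The DNA before Ngp, Camp and Ltf is shown because these were the members that passed 1.5-fold upward in LYZKL neutrophils, and because C/EBP and PU.1 factors are known to drive granule genes. The stretches come from the RefSeq promoters of GRCm38.p6, which held 9 of the 10 members, are written 5′ to 3′ on the strand of the gene and end at the base before the annotated gene. Capitals mark a C/EBP-type motif (TTGCNNAA) or a PU.1-type motif (GAGGAA) on either strand.
Ngp, chr9:110419558-110419746: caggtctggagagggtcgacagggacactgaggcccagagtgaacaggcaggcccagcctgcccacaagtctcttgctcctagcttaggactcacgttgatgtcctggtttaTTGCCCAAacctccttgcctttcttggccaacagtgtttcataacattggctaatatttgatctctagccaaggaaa
Camp, chr9:109849618-109849706: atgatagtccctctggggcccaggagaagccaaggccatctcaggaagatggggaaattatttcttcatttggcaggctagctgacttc
Ltf, chr9:111019042-111019270: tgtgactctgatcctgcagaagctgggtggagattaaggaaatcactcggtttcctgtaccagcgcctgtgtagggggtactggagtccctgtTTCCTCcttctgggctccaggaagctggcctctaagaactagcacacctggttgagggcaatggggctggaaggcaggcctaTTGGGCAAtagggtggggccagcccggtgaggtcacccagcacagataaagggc
In the 250 bases before the RefSeq start, the C/EBP-type motif was found in 6 of the 9 members matched (Ngp, Ltf, Lcn2, S100a9, Retnlg and Mmp8), against 9.56% of all 32851 promoters of the table. The PU.1-type motif was found in 4 members (Ltf, Lcn2, S100a8 and Mmp8), against 23.3% of promoters. The letters TATAAA on the strand of the gene were found in S100a8 and Ifitm6, against 7.59%. Neither of the first 2 motifs was found in these 250 bases for Camp or Ifitm6. For Lcn2 and Ifitm6 the 250 bases lie wholly within the annotated gene, and for Ngp, Camp, Ltf and S100a8 partly. Where a gene has both motifs they do not overlap in the stretches shown, and a match of letters is not a measured site.

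The matrices hold 13607 barcodes in LYZKL and 12204 in WTKL, where the labels give estimates of 7202 and 6609 recovered cells. After barcodes with under 500 detected genes or over 10% mitochondrially coded UMIs were left out, 13451 barcodes remained in LYZKL and 12003 in WTKL. Before this filter the matrices held 93584629 UMIs in LYZKL and 77181312 in WTKL. The 2 libraries share 100 barcodes, of which 6 in LYZKL and 7 in WTKL are neutrophils. The labels name T cells only, and 65.6% of kept barcodes in LYZKL and 68.0% in WTKL passed a T cell gate (at least 2 UMIs over the 3 CD3 genes and none of Csf3r). Their 7 T cell markers summed to 4013 UMIs per 1000000 UMIs of the class (CPM) in LYZKL and 4322 CPM in WTKL.

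Neutrophils were barcodes with at least 1 UMI of Csf3r, the receptor of the growth factor of granulocytes, that passed no gate of T cells, B cells or macrophages: 1257 barcodes in LYZKL and 1038 in WTKL, with a median of 3806 and 3396 UMIs. All 7 neutrophil markers were detected in them, with a summed level of 7072 CPM in LYZKL and 8629 CPM in WTKL. The 7 T cell markers summed to 79.9 CPM in LYZKL neutrophils and 124 CPM in WTKL neutrophils, and the 7 macrophage markers to 81.8 and 91.3 CPM. The eosinophil genes Prg2 and Epx and the 4 markers of mast cells and basophils were at 0 in both. A further 788 Csf3r barcodes in LYZKL and 784 in WTKL, which also passed another gate, were set aside.

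Csf3r itself was lower in LYZKL neutrophils, at 837 CPM, against 1064 CPM in WTKL neutrophils. A second gate that does not use Csf3r (at least 2 UMIs over Cxcr2, Hdc, Trem1, Clec4d, Mxd1 and Il1r2, with the same lineages left out) held 2216 barcodes in LYZKL and 1341 in WTKL, of which 44.2% and 23.8% had no Csf3r UMI. The Csf3r gate therefore takes a smaller part of the cells of the second gate in LYZKL, and for the 10 genes the values of both gates are given. Tmem173, the floxed gene, had 4.47 CPM in LYZKL neutrophils and 19.9 CPM in WTKL neutrophils (24 and 77 UMIs). In macrophages it had 29.3 CPM in LYZKL and 37.1 CPM in WTKL (log2 ratio -0.34, -0.75 to 0.08). It was higher in LYZKL in T cells, with 46.5 CPM against 28.4 CPM in WTKL (log2 ratio 0.71). The same held in B cells, with 27.2 CPM in LYZKL and 17.3 CPM in WTKL (51 and 39 UMIs). Which part of Tmem173 is deleted is not given in the sources used here, so 3' counts do not check the deletion.

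Of the 10 genes, 3 were at least 1.5-fold higher in LYZKL neutrophils (Ngp, Camp and Ltf) and 1 was at least 1.5-fold lower (Mmp9). All 10 passed the minimums for a call, 30 CPM in the library where the gene is higher and 100 UMIs in total. Of all 3941 genes past these minimums, 2.89% were higher and 3.73% lower by that fold. The median log2 ratio of LYZKL over WTKL was 0.42 for the 10 genes and 0.03 for all genes tested. The other 6 were between 0.09 and 0.50 on the log2 scale, all above 0 in this gate. Under the gate without Csf3r, the median log2 ratio was 0.09 for the 10 genes and 0.08 for all genes tested.

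Ngp codes for the neutrophilic granule protein, a cystatin-related protein of the secondary granules. It stood at 1085 CPM in LYZKL neutrophils and 528 CPM in WTKL neutrophils, a log2 ratio of 1.04 (0.97 to 1.11). Camp, the precursor of the cathelicidin antimicrobial peptide, stood at 375 CPM in LYZKL neutrophils and 185 CPM in WTKL neutrophils (log2 ratio 1.02, 0.90 to 1.15). Ltf codes for lactoferrin, the iron-binding protein of the same granules. Its level was 94.9 CPM in LYZKL neutrophils and 52.4 CPM in WTKL neutrophils (log2 ratio 0.86, 0.62 to 1.10). Lcn2, the lipocalin that captures bacterial siderophores, was far more abundant and nearer to even, with 2449 CPM in LYZKL neutrophils and 1933 CPM in WTKL neutrophils (log2 ratio 0.34).

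S100a8 and S100a9, whose proteins pair to form calprotectin, had the most UMIs of the 10. S100a8 had 44051 CPM in LYZKL neutrophils and 38911 CPM in WTKL neutrophils, and S100a9 had 42828 CPM and 40236 CPM. Together they made up 8.69% of all neutrophil UMIs in LYZKL and 7.91% in WTKL, and the 10 genes together 9.84% and 8.79%. Both ratios were small (log2 0.18 for S100a8 and 0.09 for S100a9), and under the gate without Csf3r both turned below 0, to -0.12 and -0.25.

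Retnlg, which codes for resistin-like gamma, had 5965 CPM in LYZKL neutrophils and 4571 CPM in WTKL neutrophils (log2 ratio 0.38). Ifitm6, of the interferon-induced transmembrane family, had 819 CPM in LYZKL neutrophils and 580 CPM in WTKL neutrophils (log2 ratio 0.50). The collagenase gene Mmp8 had 407 CPM in LYZKL neutrophils and 299 CPM in WTKL neutrophils (log2 ratio 0.45). The other metalloproteinase, gelatinase B of the tertiary granules, went the other way: Mmp9 had 354 CPM in LYZKL neutrophils and 609 CPM in WTKL neutrophils, a log2 ratio of -0.78 (-0.87 to -0.69).

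**Figure D1:**
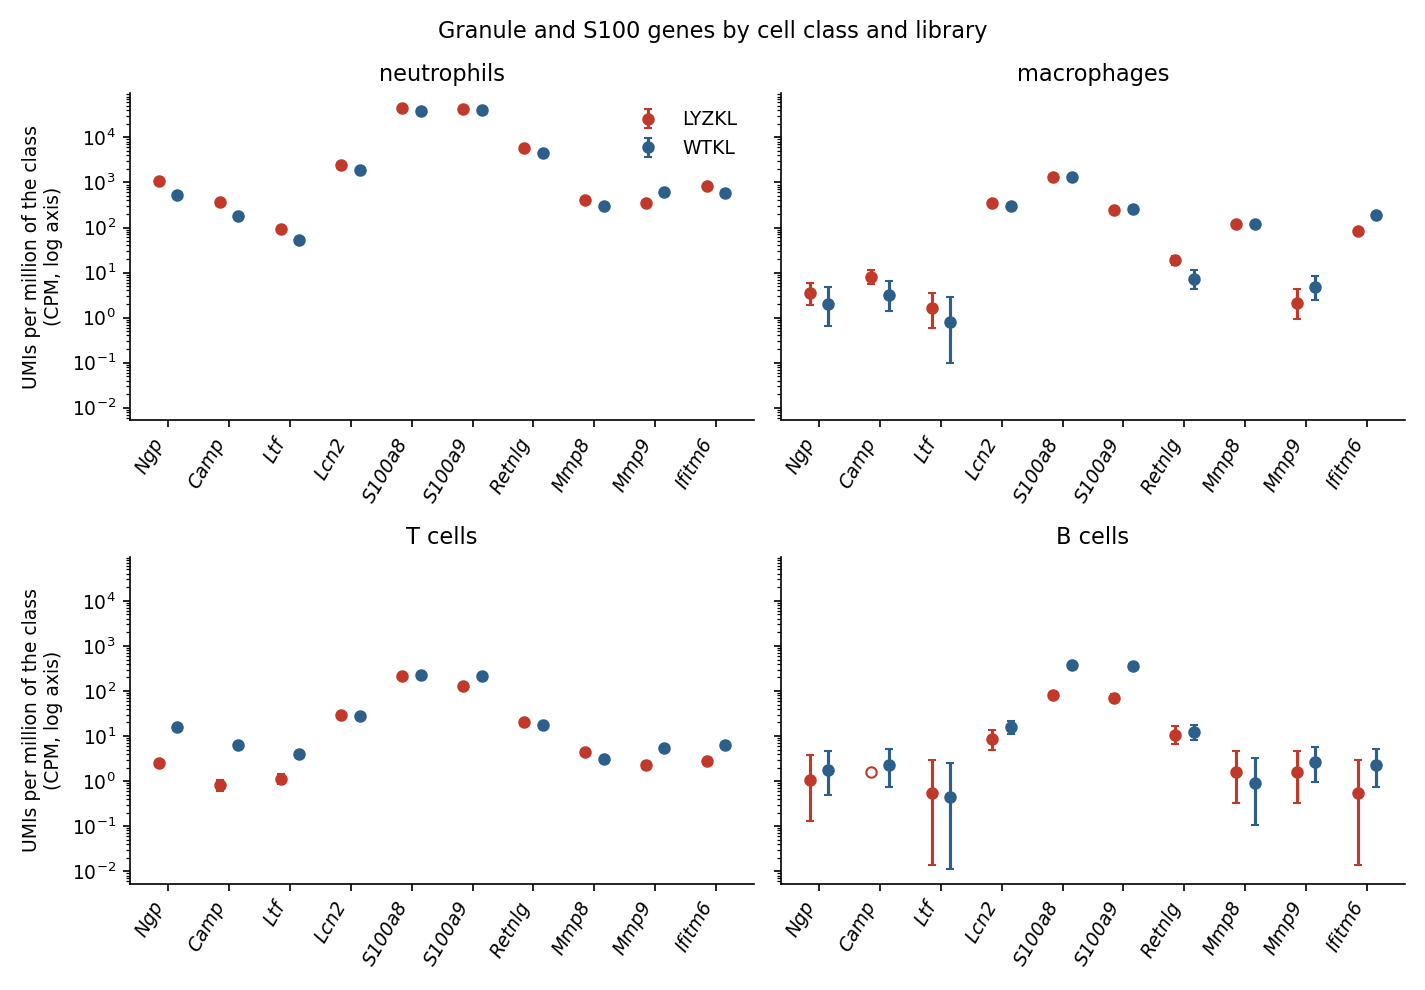
Levels of the 10 genes (CPM, log axis) in 4 cell classes, LYZKL in red and WTKL in blue, with exact 95% Poisson intervals; the open point is Camp in LYZKL B cells, at 0 UMIs and drawn at the value of 3 counts. S100a8 and S100a9 stand highest in neutrophils of both libraries, and outside neutrophils the levels are at most 7.60% of the neutrophil level except for Mmp8, Ifitm6 and Lcn2 in macrophages.

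The levels of Ngp, Camp and Ltf rest on few cells. Of the Ngp UMIs, 50% lay in 5 of the 1257 LYZKL neutrophils and in 4 of the 1038 WTKL neutrophils. For Camp the number was 2 cells in LYZKL and 1 cell in WTKL, and for Ltf 3 cells and 2 cells. The single richest neutrophil held 1031 Ngp UMIs in LYZKL and 505 in WTKL. Barcodes with at least 100 Ngp UMIs numbered 11 among LYZKL neutrophils and 4 among WTKL neutrophils. Outside this class LYZKL had 2 that passed no gate and 1 that passed a pair of other gates, and WTKL had 4 that passed both the neutrophil and the T cell gate and 1 among T cells. In the barcodes that passed both of those gates, which were set aside, the 3 genes went the other way: Ngp had 66.0 CPM in LYZKL and 309 CPM in WTKL (log2 ratio -2.23), Camp 4.76 and 40.9 CPM (-3.10) and Ltf 4.08 and 25.2 CPM (-2.62).

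The other 7 genes were spread over many cells. For S100a8, 50% of the UMIs lay in 149 cells in LYZKL and 124 cells in WTKL, for Mmp9 in 101 and 120 cells, and for Ifitm6 in 45 and 24 cells. When the 10 cells richest in each gene were left out of each library, the log2 ratio was 1.41 for Ngp and -0.78 for Mmp9. Camp and Ltf then fell short of the minimums, with ratios of 1.00 and -0.27, so the higher level of Ltf in LYZKL lies in those cells. Ifitm6, at 0.74, then passed 1.5-fold.

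**Figure D2:**
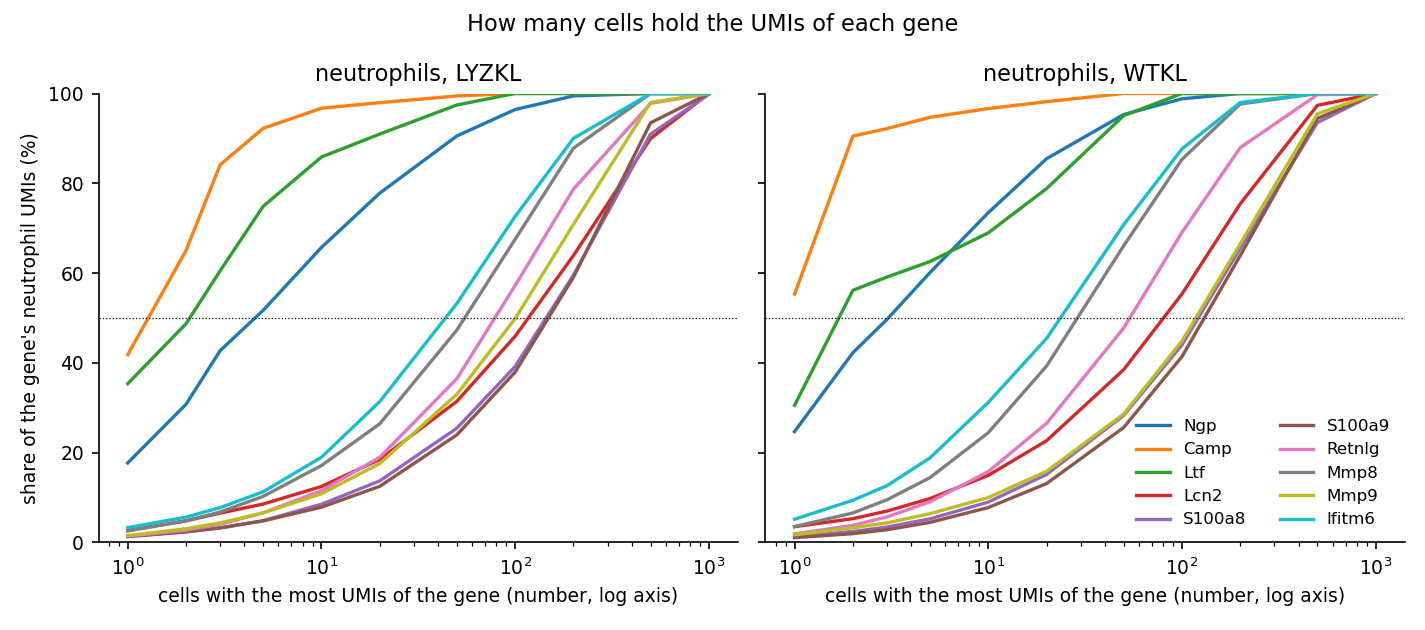
Share of a gene's neutrophil UMIs (%) held by the cells with the most UMIs of that gene, against the number of such cells (log axis), for LYZKL on the left and WTKL on the right; the dotted line marks 50%. The curves of Camp, Ltf and Ngp stand far to the left of the other 7 in both libraries: 10 cells hold 96.7% of the Camp UMIs in LYZKL and 96.6% in WTKL.

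Detection by cell gives a view that a few rich cells cannot set. After each cell was thinned to 1000 UMIs, which left out 6 LYZKL and 7 WTKL neutrophils, 10.3% of LYZKL neutrophils and 6.17% of WTKL neutrophils had a UMI of Ngp (18.4% and 11.9% unthinned). For Mmp9 the thinned shares were 21.3% in LYZKL and 34.5% in WTKL (42.8% and 58.5% unthinned). Ltf was detected in 2.10% of LYZKL neutrophils and 2.43% of WTKL neutrophils, and Camp in 1.81% and 1.17%, so neither marked more than a small part of the cells.

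The thinned share was higher in LYZKL for 6 of the 10 genes. The same count over all genes was not computed, so the 6 cannot be set against it. The widest gaps upward were those of Lcn2 (58.4% of LYZKL and 47.1% of WTKL neutrophils), Retnlg (50.6% and 43.4%) and Ifitm6 (21.4% and 14.6%). S100a9 was detected in fewer LYZKL neutrophils, 73.2% against 83.8% in WTKL, although its summed level was not lower, and S100a8 in 85.5% and 88.3%. By the second gate the gaps of Ngp, Lcn2 and Ifitm6 were narrower and that of Retnlg turned round. Ngp was then detected in 6.53% of LYZKL and 5.24% of WTKL cells, Lcn2 in 49.0% and 44.0%, and Retnlg in 33.1% and 36.8%, while the share of Ifitm6 was 0.835 percentage points higher in LYZKL. The gap of Mmp9 stayed, at 14.4% in LYZKL and 29.2% in WTKL. In T cells, which should lack these genes, the thinned shares were 0.207% in LYZKL and 0.310% in WTKL for Ngp and 0.220% and 0.493% for Mmp9. They were 10.6% and 10.4% for S100a8 and 8.43% and 10.4% for S100a9 (41.2% and 40.2%, and 37.3% and 40.7%, unthinned). Thinning left out 13 LYZKL and 14 WTKL T cells, and the T cells had a median of 5680.5 UMIs in LYZKL and 4968 in WTKL.

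Under the gate without Csf3r, Ngp stood at 857 CPM in LYZKL and 411 CPM in WTKL (log2 ratio 1.06), Camp at 369 and 146 CPM (1.34), Ltf at 99.2 and 45.9 CPM (1.11) and Mmp9 at 235 and 498 CPM (-1.08). The same 3 genes were at least 1.5-fold higher and the same 1 lower, where 4.53% of 4234 genes were higher and 3.87% lower. Lcn2, Retnlg, Mmp8 and Ifitm6 were then between -0.01 and 0.15. With any Csf3r barcode counted, other lineages included, Ngp (0.71), Camp (0.96) and Mmp9 (-0.76) still passed 1.5-fold and Ltf (0.52) did not. In that gate 0.927% of genes were higher and 1.48% lower.

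**Figure D3:**
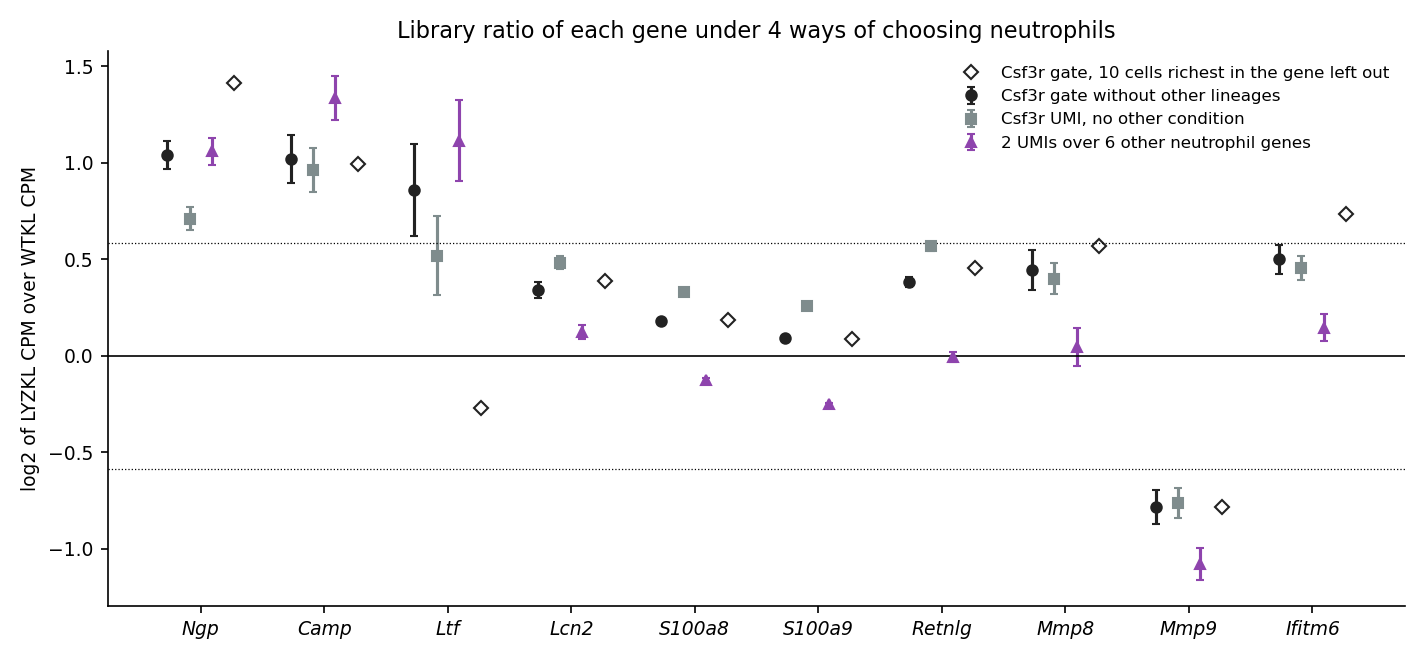
Log2 ratio of LYZKL over WTKL CPM for each gene under 4 ways of choosing neutrophils; bars are exact 95% intervals for counting error, none being drawn for the values without the 10 richest cells, and dotted lines mark 1.5-fold. Ngp and Camp are above the upper line and Mmp9 below the lower line under all 4, Ltf crosses 0, and S100a8 and S100a9 change sign with the gate. Without the 10 richest cells Camp and Ltf fell short of the minimums for a call.

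Neutrophils were then split by a gene that is not among the 10. Cells with a UMI of Ccl3, a chemokine of tumour neutrophils, were 61.7% of LYZKL and 54.1% of WTKL neutrophils (775 and 561 cells). In the sums over all cells, all 10 genes were lower in cells with Ccl3 in LYZKL, and 7 of the 10 in WTKL. The share of all genes that were lower in cells with Ccl3 was not computed. In LYZKL, S100a8 in cells with Ccl3 was 0.389 times its level in cells without, and Retnlg 0.279 times. In WTKL these were 0.520 and 0.378 times. In WTKL, Camp, Ltf and Lcn2 were not lower in cells with Ccl3 (1.17, 1.10 and 1.10 times).

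In neutrophils without Ccl3, 7 of the 10 genes were at least 1.5-fold higher and 0 lower, where 2.78% of 3735 genes were higher and 4.98% lower. Ngp had 2409 CPM in LYZKL and 732 CPM in WTKL (log2 ratio 1.72), and Camp 872 and 169 CPM (2.36). Ltf (1.79), Ifitm6 (0.81), Mmp8 (0.70), Lcn2 (0.65) and Retnlg (0.61) also passed, S100a8 (0.40) and S100a9 (0.33) did not, and Mmp9 was at -0.27. Without the 10 richest cells of each gene the count was 4 of 8 tested, and Ngp had 2.04. Camp (18 UMIs in LYZKL, 14 in WTKL) and Ltf (28 and 22 UMIs) then fell short of the minimums. Their ratios were 0.13 and 0.11, so their higher levels in LYZKL lie in those cells. With the gate that does not use Csf3r (614 LYZKL and 567 WTKL cells) 6 were higher and 0 lower, where 2.93% of 4068 genes were higher and 3.79% lower.

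In neutrophils with Ccl3, 0 of the 10 genes were 1.5-fold higher and 3 were lower, where 4.84% of 4067 genes were higher and 4.94% lower. Mmp9 had 211 CPM in LYZKL and 546 CPM in WTKL (log2 ratio -1.37, -1.51 to -1.24). Ngp (196 and 352 CPM, -0.85) and Camp (40.5 and 198 CPM, -2.29) were the others. Without the 10 richest cells Ngp turned to 0.40 and Camp to 1.63, the latter short of the minimums (48 UMIs in LYZKL, 10 in WTKL). The lower level of both thus lies in few cells, while Mmp9 stayed at -1.21. In the second gate (1602 LYZKL and 774 WTKL cells) 0 were higher and 4 lower (S100a9 at -0.62 besides the 3), where 5.72% of 4297 genes were higher and 5.31% lower. The gap of Mmp9 between the libraries was thus wider in cells with Ccl3 than in cells without, with no test of that difference.

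**Figure D4:**
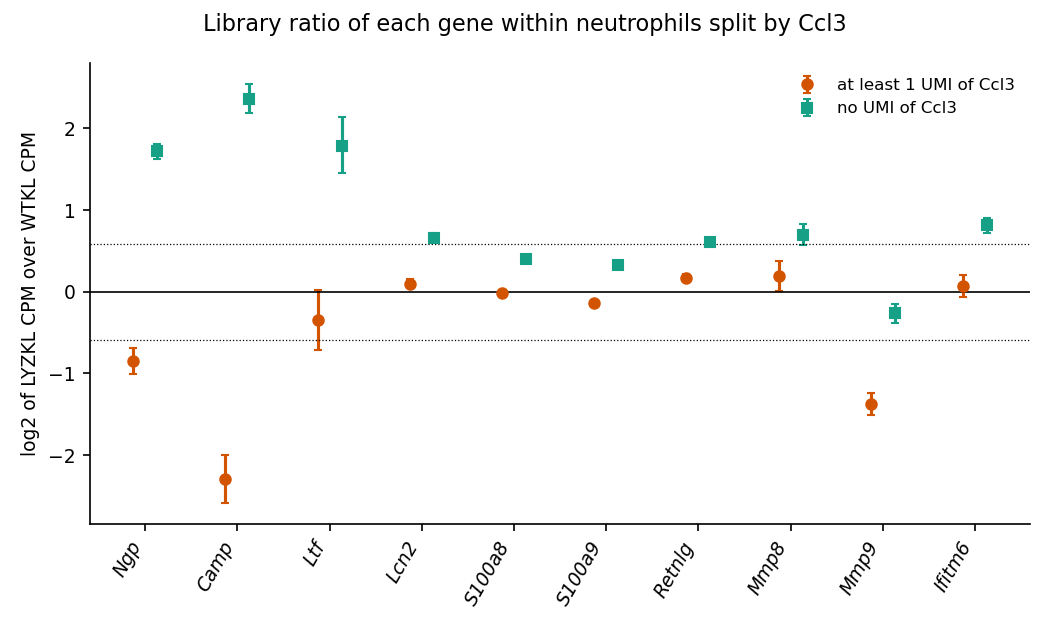
Log2 ratio of LYZKL over WTKL CPM for each gene within neutrophils with (circles) and without (squares) a UMI of Ccl3; bars are exact 95% intervals for counting error and dotted lines mark 1.5-fold. In cells without Ccl3 7 genes stand above the upper line, and in cells with it 0 do and Ngp, Camp and Mmp9 stand below the lower line.

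Across single neutrophils (1257 in LYZKL and 1038 in WTKL) some pairs of the genes varied together. Pearson's r of log-scaled counts was 0.90 in LYZKL and 0.87 in WTKL for S100a8 with S100a9, 0.71 and 0.59 for S100a9 with Retnlg, and 0.65 and 0.61 for Mmp8 with Ifitm6. Ngp went with Ifitm6 (0.63 and 0.55) and Mmp8 (0.59 and 0.53) more than with Camp (0.39 and 0.39) or Ltf (0.22 and 0.21). Ltf went most with Camp (0.47 and 0.37) and had nearly no relation to S100a8 (-0.01 and -0.07) or Retnlg (-0.05 and -0.06). Mmp9 went with Retnlg at 0.57 in LYZKL and 0.20 in WTKL. These cells share a library and their depth, with which the 10 genes had r between 0.03 and 0.40, so the values are a description.

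Cells that had Ngp, Camp and Ltf together were rare: 0.875% of LYZKL and 0.578% of WTKL neutrophils had all 3, and 74.9% and 81.6% had none. All 231 LYZKL and 124 WTKL neutrophils with Ngp also had S100a8, and 95.7% and 94.4% had Lcn2. Most neutrophils had these 2 genes in any case: S100a8 in 1170 of 1257 LYZKL and 980 of 1038 WTKL cells, and Lcn2 in 950 and 663. Among 5201 other genes, the 10 that went most closely with the summed level of Ngp, Camp, Ltf and Lcn2 were Wfdc21, Pglyrp1, Hp, S100a6, Anxa1, S100a11, Slpi, Fpr1, Mcemp1 and R3hdm4. Their lower r of the 2 libraries ran from 0.28 to 0.53, and it was highest for Wfdc21, a whey acidic protein family member whose level was 2225 CPM in LYZKL and 1909 CPM in WTKL. None of these 10 genes passed 1.5-fold between the libraries. In the cells with none of Ngp, Camp and Ltf, which were most cells, the summed level was that of Lcn2 alone. In most cells the choice of the 10 thus rests on Lcn2, while their r with Lcn2 alone was not computed.

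Other genes of granules were read as lists, at a minimum of 5 CPM, where 6.62% of 8306 genes were 1.5-fold higher and 6.89% lower. Of 18 other secondary and tertiary granule genes measured, 5 were higher (Chil3, Cybb, Orm1, Cst7 and Itgb2l) and 0 lower. The median log2 ratio of the 18 was 0.22, against 0.03 for all genes at this minimum. Chil3, the chitinase-like protein Ym1, had 683 CPM in LYZKL neutrophils and 289 CPM in WTKL neutrophils (log2 ratio 1.24). Cybb, the membrane subunit of the phagocyte oxidase, had 242 and 144 CPM (0.75). Olfm4, the secondary granule protein olfactomedin 4, had 66.9 and 47.2 CPM (0.50). Under the gate without Csf3r only 1 of the 18, Chil3 (0.70), was higher and 2 were lower, where 8.21% of 8891 genes were higher and 6.15% lower. Cybb then had a ratio of 0.13 and Olfm4 of 0.23. The median of the 18 was then -0.01, against 0.09 for all genes at this minimum.

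Of 7 primary granule genes 3 were measured, 0 higher and 1 lower. Cd63, a membrane protein of granules and lysosomes, had 1088 CPM in LYZKL neutrophils and 727 CPM in WTKL neutrophils, and the lysozyme gene Lyz2 had 611 and 711 CPM. In the second gate Cd63 was higher, at 1606 CPM in LYZKL and 855 CPM in WTKL (log2 ratio 0.91), and Lyz2 had 765 and 779 CPM. The genes of the earliest stage were close to absent. Mpo, Elane and Ctsg had 0 UMIs in LYZKL neutrophils, against 1, 1 and 0 UMIs in WTKL neutrophils, and Prtn3 had 5.03 CPM in LYZKL and 8.77 CPM in WTKL. Of 4 cell cycle genes measured, Mki67 was higher (16.2 CPM in LYZKL, 8.25 CPM in WTKL) and the other 3 lay within 1.5-fold. By the second gate 3 of 6 were higher and 0 lower. Of 6 granulopoiesis factors measured, Cebpd was lower (182 CPM in LYZKL, 303 CPM in WTKL), and Cebpe, the factor named above, had 9.88 and 8.77 CPM.

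Of 6 other S100 genes measured, 0 passed 1.5-fold in either direction. S100a6, the most abundant of these, had 5300 CPM in LYZKL neutrophils and 4987 CPM in WTKL neutrophils (log2 ratio 0.09), and S100a4 72.5 and 106 CPM (-0.55). By the second gate all 6 had ratios below 0 and S100a4 was lower, with 132 CPM in LYZKL and 238 CPM in WTKL (-0.85). Of 8 paralogs of the members, Mmp2 was higher (39 UMIs in LYZKL, 2 in WTKL), Retn and Mmp19 were lower, and Ifitm1, Ifitm2 and Ifitm3 lay between -0.15 and 0.02. By the second gate Mmp19 was within 1.5-fold (-0.19) and the 3 Ifitm genes lay between -0.43 and -0.35. Of 5 receptors and partners measured, Timp2, an inhibitor of metalloproteinases, was higher (172 CPM in LYZKL, 109 CPM in WTKL), and Tlr4, a receptor of S100A8 and S100A9, had 115 and 166 CPM (-0.53). In the second gate Tlr4 was lower, with 96.5 CPM in LYZKL and 149 CPM in WTKL (-0.63), as 1 of 2 lower among 6 measured. Timp1, the main inhibitor of gelatinase B, had 1 UMI in LYZKL neutrophils and 0 in WTKL neutrophils.

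Genes of blood neutrophils did not pass 1.5-fold in either direction (8 measured). Of 18 genes of tumour neutrophils, Ccl4 was higher (2945 CPM in LYZKL, 1684 CPM in WTKL), and Spp1 (35.0 and 161 CPM), Ptgs2 (160 and 540 CPM), Siglecf (11.6 and 39.0 CPM) and G0s2 (956 and 2870 CPM) were lower. Under the gate without Csf3r, 4 tumour neutrophil genes were higher and 5 lower, and 2 blood neutrophil genes were lower. Spp1 then had 113 CPM in LYZKL and 173 CPM in WTKL (log2 ratio -0.61).

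Macrophages (312 barcodes in LYZKL and 219 in WTKL, with at least 3 UMIs over 7 genes, among them Csf1r, Adgre1, C1qa and Mrc1, and none of Csf3r) had a different set of the 10. Of the 5 genes past the minimums, 0 were 1.5-fold higher and 1, Ifitm6, was lower, where 2.02% of 4409 genes were higher and 5.83% lower. Ifitm6 had 82.4 CPM in LYZKL macrophages and 185 CPM in WTKL macrophages (log2 ratio -1.17, -1.38 to -0.95), opposite in sign to its ratio in neutrophils. The median of all genes tested was -0.10. Mmp8 (122 and 121 CPM), Lcn2 (343 and 301 CPM), S100a8 (1340 and 1329 CPM) and S100a9 (250 and 258 CPM) lay near even in the sums. S100a9 ranged from -1.07 to 0.73 on the log2 scale over 14 alternatives. Without the 10 macrophages richest in each gene Lcn2 had a log2 ratio of 0.78 and S100a8 of 0.56, and 1 LYZKL macrophage held 479 of the 929 S100a9 UMIs.

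The macrophage levels were set against T cells, where the same free RNA would be read. Mmp8 in macrophages was 27.6 times its T cell level in LYZKL and 39.6 times in WTKL, Ifitm6 29.0 and 29.6 times, Lcn2 12.0 and 10.7 times and S100a8 6.33 and 5.82 times. Macrophages thus held these 4 well above the T cell level. S100a9 was 1.97 and 1.23 times the T cell level, and Retnlg (0.926 and 0.403) and Mmp9 (0.970 and 0.912) were not above it. The S100a8 count over the S100a9 count was 5.36 in LYZKL and 5.16 in WTKL macrophages, against 1.03 and 0.967 in neutrophils. In T cells it was 1.67 in LYZKL and 1.09 in WTKL, so LYZKL T cells did not hold the 2 genes in the neutrophil proportion. The cause was not tested. The 7 neutrophil markers summed to 900 CPM in LYZKL macrophages and 686 CPM in WTKL macrophages, with Csf3r at 0 by the gate. Their part in the macrophage levels was not tested.

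In T cells (8828 barcodes in LYZKL and 8160 in WTKL) the 10 genes were at a small part of their neutrophil level: together 0.408% of it in LYZKL and 0.598% in WTKL. S100a8 had 212 CPM in LYZKL T cells and 228 CPM in WTKL T cells, and S100a9 127 and 210 CPM (log2 ratio -0.73). Only these 2 passed the minimums, and S100a9 was the 1 called lower, where 0.941% of 4997 genes were higher and 0.68% lower. At a minimum of 5 CPM 8 were tested, 0 higher and 5 lower, where 1.9% of 9706 genes were higher and 1.31% lower.

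A few barcodes carried much of the T cell values. Ngp had 2.54 CPM in LYZKL T cells and 15.6 CPM in WTKL T cells, and 551 of the 756 Ngp UMIs of WTKL came from 1 barcode. That barcode also held 228 Camp, 121 Ltf, 1628 S100a8 and 1527 S100a9 UMIs, 40 UMIs of the 6 neutrophil genes other than Csf3r and only 2 CD3 UMIs. Without the 10 T cells richest in each gene, S100a9 had a log2 ratio of -0.49, Ngp of -0.61 and Ltf of 0.45.

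T cells without a UMI of any of the 7 neutrophil markers, a subset added after the data were seen, numbered 4293 in LYZKL and 4474 in WTKL. In these S100a8 had 94.2 CPM in LYZKL and 94.2 CPM in WTKL, and S100a9 79.8 and 99.9 CPM. The S100a8 count over the S100a9 count was 1.18 in LYZKL and 0.943 in WTKL. The 10 genes together stood at 0.207% of their neutrophil level in LYZKL and 0.254% in WTKL. Singly they ran from 0.129% for Ngp to 0.598% for Ltf in LYZKL and from 0.223% for Retnlg to 1.10% for Ltf in WTKL, a spread of 4.65 and 4.93 times. The marker genes Mxd1 and Il1r2 are also found in T cells, so this subset leaves out T cells as well.

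**Figure D5:**
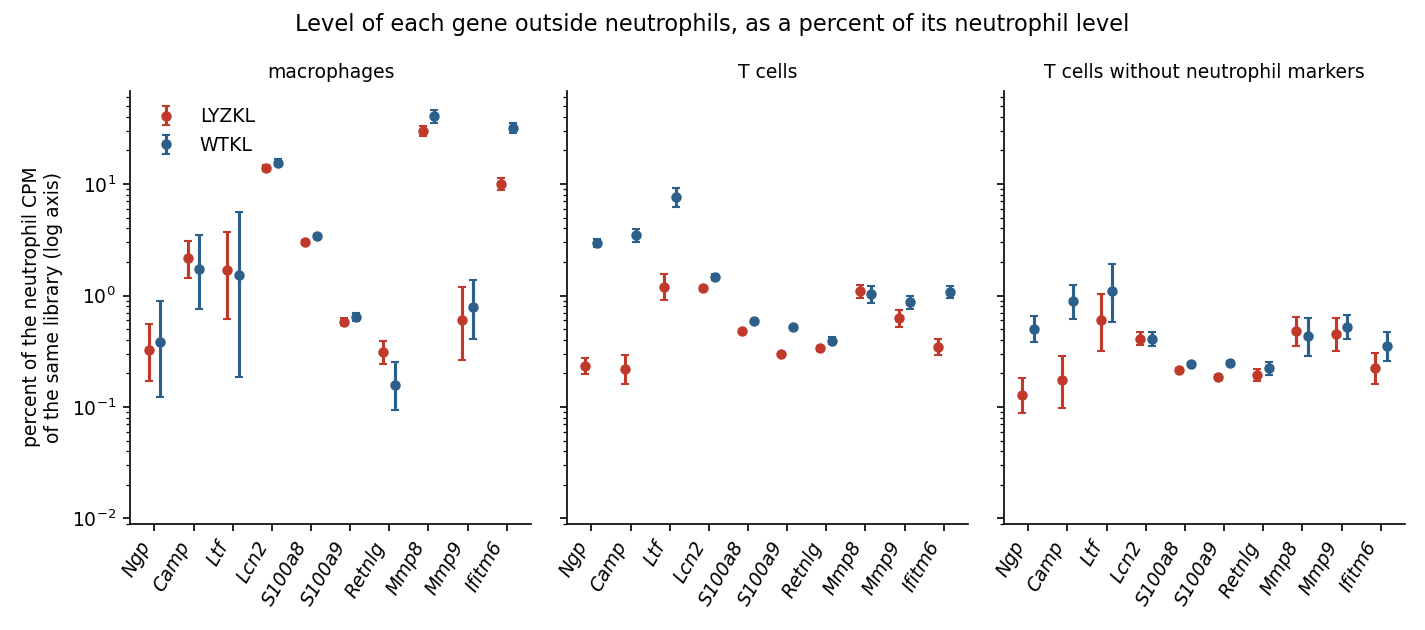
Level of each gene in macrophages, T cells and T cells without neutrophil markers as a percent of its neutrophil level in the same library (log axis), LYZKL in red and WTKL in blue, with exact 95% intervals for counting error. Mmp8, Ifitm6 and Lcn2 stand at 10.1% to 40.4% in macrophages; in T cells Ngp, Camp and Ltf of WTKL stand apart, and without neutrophil markers all points lie near or below 1%.

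Of all UMIs of the 10 genes, 70.3% lay in neutrophils in LYZKL and 68.2% in WTKL, and 12.4% and 14.8% in barcodes that passed both the neutrophil and the T cell gate. T cells held 3.20% and 5.10%. Barcodes that passed no gate (1381 in LYZKL and 653 in WTKL) held 7.18% and 4.80% of all, but far more of the rarest genes in LYZKL: 61.5% of the Ltf UMIs, 38.9% of those of Camp and 24.0% of those of Ngp, against 7.23%, 3.83% and 2.23% in WTKL. Among them 1 LYZKL barcode held 1033 Ngp, 739 Camp, 239 Ltf and 2502 S100a8 UMIs with 0 of Csf3r. Another held 570 Ltf UMIs and 63 UMIs of the 4 epithelial markers with 0 of Ngp and 2 of S100a8. Ltf is also a gene of secretory epithelium, so its count over a whole library is not one of neutrophils alone.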

How the data were processed

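The groups LYZKL and WTKL, with 1 library each, were compared in neutrophils, macrophages, T cells and B cells. The deposited matrices hold raw UMI counts per gene and barcode, and 2 further deposited files per library name the genes and the barcodes of its rows and columns. They were made with Cell Ranger 6.1.2 and mm10, per the submitters' processing notes. How cells were called is not given in the sources used here.

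Barcodes under 500 detected genes or over 10% mitochondrial UMIs were left out. T cells had at least 2 UMIs over Cd3d, Cd3e and Cd3g, B cells at least 2 over Cd79a, Cd79b and Ms4a1 and macrophages at least 3 over 7 genes, and barcodes of 2 gates were left out of all classes. No doublet caller was run for the main values. UMIs were summed per class and divided by the class total (CPM, computed here). Intervals are exact Poisson, Clopper-Pearson and conditional binomial ones at 95%. A gene was called at 1.5-fold if it reached 30 CPM where higher and 100 UMIs in total, and a count of 0 was set to 3 counts for a fold. The 10 genes, the gene lists, markers and alternatives were chosen with earlier results of these data known. The genes always named were the 10, Csf3r, Tmem173 and Lyz2; list genes served as examples where they had at least 30 CPM, and the 10 genes nearest in correlation were named. Orm1, Cst7, Itgb2l, Mpo, Elane, Ctsg, Prtn3, Mki67, Cebpe, Mmp2, Retn, Mmp19 and Timp1 lie below that level and were named after their values were seen. Alternatives changed the cell filters, gates, scaling (edgeR 4.0.16 TMM among them), minimums and thinning, and doublet removal with Scrublet in scanpy 1.11.5. A second planned split of neutrophils and some gene names are not reported here. The ratios were checked on simulated counts. Python 3.11.15 and R 4.3.3 were used.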

Additional observations from a re-analysis of the deposited data

Results flagged for a closer look

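The following differences stood out because the ratio of LYZKL over WTKL went in opposite directions in 2 classes of cells. None was tested, as each class has 1 library per group. Ngp was higher in LYZKL neutrophils and lower in LYZKL T cells, log2 ratios 3.66 apart. For Camp the neutrophil and T cell ratios were 3.996 apart and the macrophage and T cell ratios 4.30 apart, and for Ltf the neutrophil and T cell ratios were 2.67 apart. The WTKL T cell values of all 3 come largely from 1 barcode, described above. In T cells all 3 were short of the minimums for a call, which were not applied here. Camp in macrophages was short of them too, with 30 UMIs in LYZKL and 8 in WTKL (log2 ratio 1.33, 0.17 to 2.66).

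Within neutrophils, the ratio in cells with Ccl3 minus that in cells without was -2.57 for Ngp and -4.65 for Camp. These differences were not tested either, and both genes have most of their UMIs in few cells. Without the 10 richest cells of each gene, the ratio of Ngp was 0.40 with Ccl3 and 2.04 without. That of Camp, short of the minimums, was 1.63 with Ccl3 and 0.13 without, so its difference changed sign.

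Barcodes outside every class of the comparisons also held these genes. In LYZKL barcodes that passed no gate, Ngp stood at 407 CPM, Camp at 276 CPM and Ltf at 194 CPM, against 42.0, 22.6 and 18.5 CPM in WTKL.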

How the results depend on the processing

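No paired analysis was possible because each group has 1 library. In neutrophils the count of genes at least 1.5-fold higher in LYZKL stayed between 2 and 4 over 15 alternatives and that of lower genes at 1. Ngp (log2 0.71 to 1.41) and Mmp9 (-1.08 to -0.66) passed 1.5-fold in all 15, Camp in 14 (0.34 with at least 2 Csf3r UMIs) and Ltf in 12. The 14 include the setting without the 10 richest cells, where Camp fell short of the minimums for a call. Of 437 log2 ratios of single genes under alternatives, 337 stayed within the interval of the main value, 96 moved outside it and 4 that were past 1.5-fold turned round. The 4 were Ltf in neutrophils (-0.27), Camp in macrophages (-0.19) and Ltf in T cells (0.45), all without the 10 richest cells, and Ltf in macrophages (-0.84) with Csf3r barcodes kept. A change of sign from a ratio under 1.5-fold was seen in 22 of the 437. In macrophages 2 genes were lower with at least 1000 detected genes and with Csf3r barcodes kept, and 1 was higher with predicted doublets removed, a gate of 6 UMIs, Csf3r barcodes kept or the 10 richest cells left out. In T cells 0 were lower by the mean of per-cell CPM, without neutrophil marker UMIs or without the 10 richest cells, and 5 at a minimum of 5 CPM. Of the other secondary and tertiary granule genes 3 were higher at a minimum of 20 CPM and 1 with any Csf3r barcode. In neutrophils with Ccl3, leaving out the 10 richest cells gave 1 higher and 1 lower, and in those without it 4 higher. The cause of these moves was not tested. TMM scaling shifted macrophage ratios by 0.10. The subset of T cells without neutrophil markers, the values without the 10 richest cells and the alternatives to the split by Ccl3 were added after the data were seen. Camp and Ltf rest on few cells, so the interval of a sum understates their error.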
